A study of Homo sapiens with 30 samples.

Results

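H9, a long-established line of human embryonic stem cells, had its gene expression compared between day 11 and day 7 of a differentiation that the labels call NSB. The comparison takes the 3 arrays labelled NSB at day 11 and the 3 labelled NSB at day 7, which are 6 of the 30 arrays of the series. The other 24 arrays, in 8 groups of 3, are of day 1, of day 3, of NSB at days 5 and 9, and of a second arm called PIP at days 5, 7, 9 and 11. Members were chosen by the time point label alone. Both groups share the cell line, the NSB arm and the RNA preparation (Trizol extraction, biotin-labelled cRNA), and they differ by 4 days of culture. Replicates are labelled biological, but nothing states that they came from separate cultures, so the spread between them may be technical. The p-values rest on that spread, shared for each gene over all 10 groups of the series and not taken from the 6 arrays alone. As 1 cell line was used, the values describe that line.

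By knowledge of the study and not of its labels, NSB stands for treatment with Noggin, an antagonist of BMP ligands, together with a blocker of the activin and Nodal receptors, which turns pluripotent cells into neural ectoderm of anterior character. PIP, which shares its first days, is a protocol for inducing placodes. In the developing forebrain, neural progenitors are held in the dividing state by Notch signalling: a ligand such as DLL1 on a differentiating cell activates the receptor on its neighbour, which then makes repressors of the HES and HEY families. FGF, WNT, BMP, Hedgehog and retinoic acid signals set which region of the neural plate a progenitor belongs to.

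Normalized values are given on the log2 scale, so a difference of 1 is a 2-fold change. They compare arrays for the same gene and do not rank genes by abundance. Differences are day 11 minus day 7, calls needed an adjusted p below 0.05 (limma, Benjamini-Hochberg), and "rose" and "fell" are used of called genes only. Median unnormalised intensity was 53.3 to 62.4 units on the day 11 arrays and 53.6 to 61.2 on the day 7 arrays, with 39 to 40 beads per probe at the median. The day 11 arrays detected 34.0% to 35.0% of 48701 probes and the day 7 arrays 35.8% to 36.2%. Correlations across genes were 0.9876 to 0.9947 within a group and 0.966 to 0.977 between the groups. The median standard deviation between replicates was 0.118 at NSB day 11 and 0.152 at NSB day 7, which was the highest of the 10 groups.

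Of 13488 genes tested, 5950 were called (44.1%), 2661 of them higher at day 11 (19.7%) and 3289 lower (24.4%). Most of these changes were small: the median log2 difference was 0.473 among the called rises and -0.475 among the called falls, against -0.0247 over all genes. At least 2-fold differences were called for 573 genes (4.25%), of which 276 were higher (2.05%) and 297 lower (2.2%). The 3 day 11 values lay outside the range of the 3 day 7 values for 5869 genes (43.5%). The split into rises and falls depends on the scaling. Scaled to the median of all probes instead of by quantiles, the median gene moved by -0.25 and 802 genes were higher and 5484 lower, whereas scaled to the median of probes detected on every array the median gene moved by 0.111 and 3940 were higher and 2702 lower. Changes of named genes below are therefore read beside the median of all genes. A gene list whose direction depends on the scaling is named as such. Counts of list members are read beside the 44.1% of all genes called, 19.7% higher and 24.4% lower.

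The largest change in the comparison was that of a Notch target. HES5, a repressor that keeps neural progenitors undifferentiated, had values of 12.81, 12.49 and 12.72 at day 11, against 8.35, 7.55 and 8.33 at day 7. Every day 11 array was far above every day 7 array, and the difference of 4.60 ± 0.16 (SE) amounted to 24.2-fold (adjusted p = 5.06e-18). HES4, of the same family, had 12.72, 12.81 and 12.75 at day 11 and 10.13, 9.87 and 10.15 at day 7, a 6.54-fold rise. HEY1, a repressor that Notch also activates, had 8.39, 8.55 and 8.31 at day 11 against 6.26, 5.97 and 6.18 at day 7, a 4.87-fold rise. The ligand DLL1 rose 2.88-fold, with 11.70, 11.58 and 11.54 at day 11 and 10.14, 9.97 and 10.14 at day 7. The groups did not overlap for any of these 4 genes. Of the 18 Notch pathway genes tested, 12 rose, 2 fell and 4 did not pass, with a median difference of 0.68. The other 8 that rose were ligands, a receptor, glycosyltransferases and a regulator, with differences of 0.50 to 1.30, and those that fell had -0.59 and -0.47. The 2 that fell, singled out after their values were seen, were HES1, a Notch target of the same family as HES5, and the atypical ligand DNER. Under all-probe scaling 9 members rose and 2 fell, and under scaling to detected probes 14 rose and 1 fell.

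In mammals the Notch receptor's fragment acts on DNA through RBPJ, whose best-known recognition sequence is GTGGGAA. The upstream windows of the 2 targets with the largest rise are shown because they carry this sequence, printed in capitals in either orientation. They are the 250 bases before the RefSeq start, 5′ to 3′ on the gene's strand, at chr1:2530264-2530513 (minus strand) for HES5 and chr1:1000098-1000347 (minus strand) for HES4, build GRCh38.p14.
HES5 upstream: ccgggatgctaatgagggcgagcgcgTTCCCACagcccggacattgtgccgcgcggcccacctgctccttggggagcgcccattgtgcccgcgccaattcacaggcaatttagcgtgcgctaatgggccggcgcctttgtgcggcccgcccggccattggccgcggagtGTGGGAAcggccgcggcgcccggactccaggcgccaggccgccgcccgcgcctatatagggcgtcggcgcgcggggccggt
HES4 upstream: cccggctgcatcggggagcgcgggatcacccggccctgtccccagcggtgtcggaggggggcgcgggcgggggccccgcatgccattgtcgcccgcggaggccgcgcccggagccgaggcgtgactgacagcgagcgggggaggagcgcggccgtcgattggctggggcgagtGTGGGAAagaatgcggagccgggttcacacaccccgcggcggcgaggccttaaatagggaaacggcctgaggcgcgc
HES5 held 2 matches, at bases 224 to 218 before the start on the opposite strand and at bases 81 to 75 on the gene's strand. HES4 held 1, at bases 77 to 71 on the gene's strand. Among 35116 RefSeq windows of the same length, 1906 (5.43%) held the sequence on either strand. A match describes the sequence only, since binding was not measured. Windows of other Notch targets, such as HEY1, which rose, and HES1, which fell, were not examined singly. Matches were therefore not compared between genes that rose and genes that fell.

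Neural progenitor genes rose more often than they fell. Of 22 tested, 16 rose, 3 fell and 3 did not pass, with a median of 0.60, and under all-probe scaling 8 rose and 5 fell. Without day 11 replicate 3, or without day 7 replicate 1, there was 1 fall. FABP7, a fatty acid carrier of radial glia, rose 3.89-fold, with 12.11, 12.28 and 12.19 at day 11 and 10.11, 10.41 and 10.18 at day 7. ZBTB16, a transcription factor of early neural stem cells, had 9.38, 9.27 and 9.11 at day 11 against 7.24, 6.47 and 7.15 at day 7, a 4.92-fold rise. POU3F2, a neural POU factor, rose 3.08-fold and its groups did not overlap. The general progenitor markers moved less: NES, the filament protein nestin, rose 1.46-fold and CDH2, the N-cadherin of neural epithelium, 1.20-fold. CDH2 reversed to -0.04 under all-probe scaling, and NES no longer passed there. The probe of SOX2 stood near background, detected on 1 of 3 arrays at day 11 and 2 of 3 at day 7, and SOX1 was below the filter, so these standard markers say little here. Summed over the 5 tested markers of neural progenitors (NES, FABP7, HES5, CDH2 and SOX2), normalized linear intensity was 22410 to 23150 at day 11 and 10070 to 11390 at day 7. Most of that gain came from HES5 and FABP7, and less from the general markers. The 6 tested anterior neural markers, in contrast, summed to 15590 to 16950 at day 11 and 16540 to 16930 at day 7. RNA was taken from whole cultures, in which more cells of a type and more RNA per cell cannot be told apart.

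Factors that name forebrain regions rose after low values at day 7, while the early anterior factor HESX1 fell. NR2F1, a nuclear receptor with graded expression in the cortex, had 8.47, 8.42 and 8.50 at day 11, against 5.62, 5.53 and 5.61 at day 7. Its 7.34-fold rise (2.88 ± 0.12, adjusted p = 1.51e-16) was many times the spread within either group. FEZF2, a forebrain zinc finger factor, had 7.47, 7.67 and 7.10 at day 11 and 5.39, 5.57 and 5.26 at day 7, a 4.03-fold rise. EMX1, a homeobox factor of the dorsal telencephalon, had 7.73, 7.35 and 7.73 at day 11 against 5.77, 6.0 and 5.89 at day 7, a 3.29-fold rise. HESX1, a homeobox repressor of the anterior neural plate and pituitary, went the other way with 9.42, 9.56 and 9.48 at day 11 and 11.85, 11.96 and 12.07 at day 7, a 5.54-fold fall (-2.47 ± 0.17). Of 19 genes of the anterior neural and eye field list, 12 rose, 3 fell and 4 did not pass, with a median of 0.55. Under all-probe scaling 9 rose and 4 fell, and under scaling to detected probes 13 rose and 2 fell.

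The eye field factors that give the cultures their anterior label had already been high at day 7. PAX6 had 10.30, 10.31 and 10.23 at day 11 and 9.87, 9.77 and 10.05 at day 7, a rise of 1.30-fold that came to a difference of 0.00 under all-probe scaling. LHX2, a LIM homeobox factor needed for the eye field, had 12.97, 12.77 and 12.85 at day 11 against 12.33, 12.10 and 11.99 at day 7, a 1.65-fold rise. RAX, the retina and anterior neural fold homeobox factor, had 11.19, 10.90 and 10.78 at day 11 and 11.18, 10.23 and 11.12 at day 7, and its groups overlapped (difference 0.11, adjusted p = 0.636). SIX3 had 9.40, 9.28 and 9.61 at day 11 against 9.81, 9.94 and 9.41 at day 7, also overlapping (-0.29, adjusted p = 0.105). OTX2, the head-organising homeobox factor, likewise overlapped between 11.96, 11.99 and 12.16 at day 11 and 11.95, 12.32 and 12.12 at day 7. At day 5, the NSB means of PAX6, LHX2 and RAX had been 6.11, 7.83 and 7.33. SIX3 and OTX2 were by then near their day 7 level, with day 5 means of 9.64 and 12.26.

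**Figure D1:**
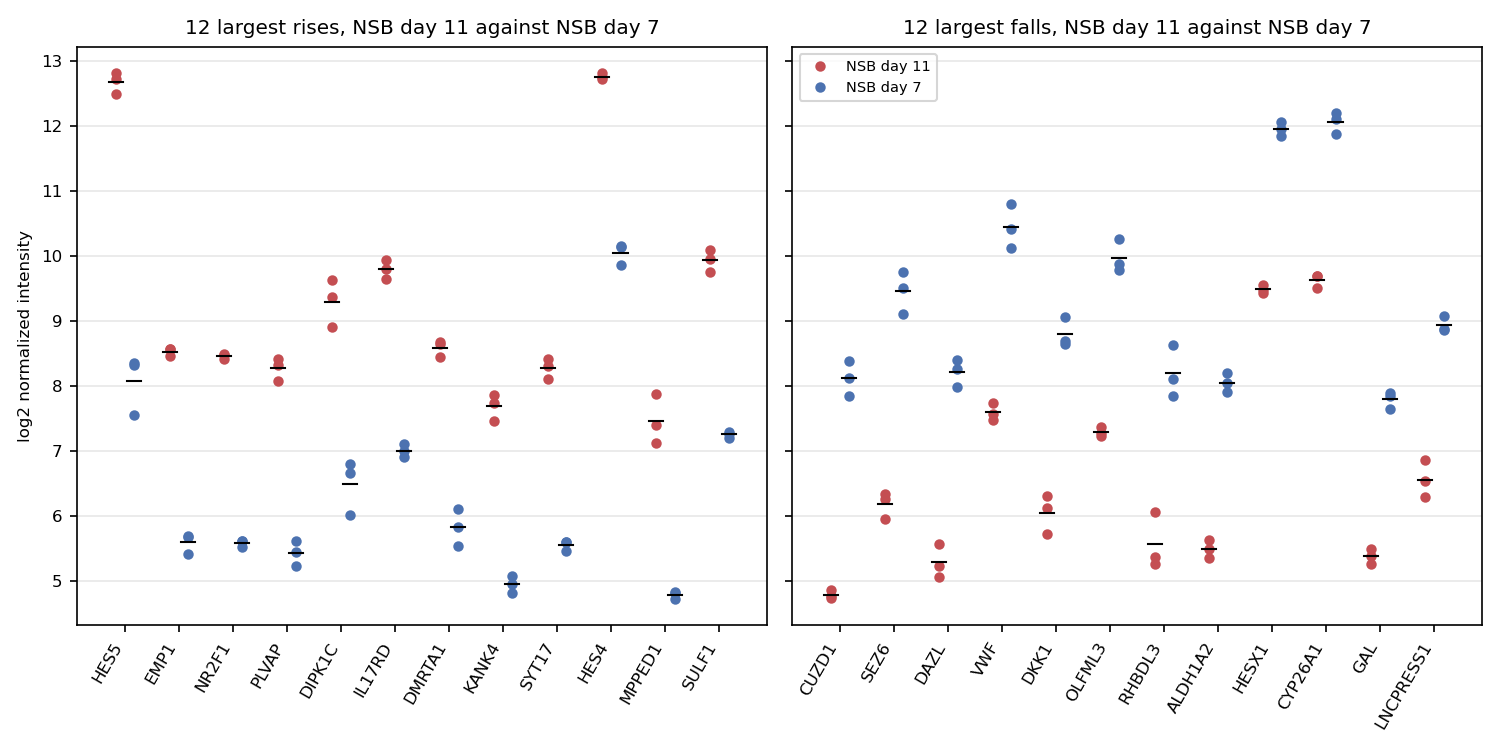
Log2 normalized intensity of each NSB day 11 array (red) and NSB day 7 array (blue) for the 12 genes with the largest rise (left) and the 12 with the largest fall (right), with bars at the group means. The 3 values of the groups do not overlap for any of the 24 genes, since the choice of genes required it, and HES5 shows the widest gap.

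Neuronal genes moved in both directions. NEUROG2, a proneural factor that starts neuron formation, had 10.25, 10.18 and 10.45 at day 11 and 8.91, 8.75 and 9.10 at day 7, a 2.59-fold rise. NHLH1, a helix-loop-helix factor of newborn neurons, rose 2.59-fold as well, with 7.88, 7.94 and 8.05 at day 11 against 6.46, 6.60 and 6.69 at day 7. MAP2, the dendritic microtubule protein, rose 3.61-fold, and STMN4, a neuronal stathmin detected on no day 7 array, rose at least 2.73-fold. ELAVL3, an RNA-binding protein of neurons, had also been detected on no day 7 array and rose at least 1.42-fold. In contrast, STMN2, a stathmin of growing axons, had 7.97, 8.09 and 8.21 at day 11 and 8.92, 9.15 and 9.13 at day 7, a 1.97-fold fall. GAP43, the growth cone protein, had 5.77, 6.0 and 6.24 at day 11 against 7.57, 7.86 and 7.48 at day 7, a 3.11-fold fall. DCX and TUBB3, structural genes of young neurons, overlapped between the days with differences of 0.25 and -0.25 (adjusted p = 0.0725 and 0.0861). Of 19 genes tested, 7 rose, 4 fell and 8 did not pass, with a median of 0.17 that turned to -0.03 under all-probe scaling.

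Most genes of FGF signalling rose, among them ligands and targets. FGF8, the ligand secreted by the ridge at the front of the neural plate, had 10.06, 10.07 and 10.22 at day 11 and 8.60, 8.26 and 8.65 at day 7, a 3.07-fold rise. FGF9 had 9.74, 9.50 and 9.54 at day 11 against 8.01, 7.53 and 7.57 at day 7, a 3.71-fold rise. Among the genes that FGF signalling switches on, ETV5, a transcription factor, had 11.33, 11.02 and 11.03 at day 11 and 8.77, 8.51 and 8.74 at day 7 (5.48-fold). IL17RD, a membrane antagonist of FGF receptors also called Sef, had 9.65, 9.80 and 9.94 at day 11 against 7.11, 6.90 and 7.00 at day 7 (6.94-fold, adjusted p = 1.15e-16). ETV4, a close relative of ETV5, rose 1.42-fold and lost its call under all-probe scaling. Of 22 genes of the pathway, 13 rose, 3 fell and 6 did not pass, with a median of 0.51. The 3 that fell, singled out after their values were seen, were the receptors FGFR1 and FGFR3 and the ligand FGF2, with -0.87, -0.29 and -0.62. The call of FGFR3 was lost under 3 of 19 alternatives. Under all-probe scaling 7 members rose and 3 fell (median 0.12), and under scaling to detected probes 14 rose and 2 fell.

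WNT pathway genes fell more often than they rose, with 3 up, 9 down and 13 not passing among 25. The 48% called is near the 44.1% of all genes, which were also lower (24.4%) more often than higher (19.7%). DKK1, a secreted WNT antagonist that promotes head formation, had 6.12, 6.31 and 5.72 at day 11 and 8.70, 9.05 and 8.64 at day 7, a 6.71-fold fall. SP5, a direct WNT target, was detected on no day 11 array, with 4.92, 4.97 and 4.71 at day 11 against 7.25, 7.06 and 6.93 at day 7, a fall of at least 3.54-fold. RSPO3, a secreted amplifier of WNT signals, fell 2.70-fold. The ligand WNT5B went the other way, with 9.90, 9.87 and 10.03 at day 11 and 8.42, 8.34 and 8.40 at day 7, a 2.92-fold rise. The list median of -0.12 turned to 0.04, with 7 up and 7 down, when arrays were scaled to probes detected on every array. Without day 7 replicate 1 there were 5 rises.

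Among 18 BMP pathway genes 6 rose and 4 fell, with a median of 0.10 that turned to -0.14, with 2 up and 5 down, under all-probe scaling. MSX1, a homeobox target of BMP, rose 2.49-fold, with 7.15, 7.24 and 7.23 at day 11 and 5.94, 5.94 and 5.79 at day 7. The receptor BMPR1B rose 1.85-fold, and ID1, a target that blocks helix-loop-helix factors, 1.67-fold. GREM1, a secreted BMP antagonist, had 6.67, 6.90 and 6.72 at day 11 against 7.70, 8.08 and 7.85 at day 7, a 2.17-fold fall. In the Hedgehog list the 4 genes that rose of 8 tested were the coreceptors CDON (2.47-fold), GAS1 (1.88-fold) and BOC (1.71-fold) and the transcription factor GLI3 (1.73-fold). No other member was called, and the ligand SHH was below the filter. Under all-probe scaling 3 members rose and 1 fell, with a median of 0.21 against 0.55.

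Of the enzymes that make and break down retinoic acid, ALDH1A2, CYP26A1, DHRS3 and RDH10 fell, while the list as a whole moved in both directions. ALDH1A2, the main embryonic enzyme of retinoic acid synthesis, had 5.62, 5.35 and 5.49 at day 11, against 8.20, 7.91 and 8.04 at day 7, a 5.91-fold fall. CYP26A1, which degrades retinoic acid and is itself switched on by it, had 9.69, 9.51 and 9.68 at day 11 and 12.10, 12.20 and 11.88 at day 7, a 5.40-fold fall (-2.43 ± 0.09, adjusted p = 1.86e-17). DHRS3, a retinaldehyde reductase, fell 2.01-fold and RDH10, a retinol dehydrogenase, 1.60-fold, and the groups did not overlap for either. The synthesis enzyme ALDH1A1 was called higher at 0.58 ± 0.17 although its groups overlapped, with 5.58, 6.35 and 5.22 at day 11 against 4.98, 5.38 and 5.07 at day 7. Its call rests on the second day 11 array, without which the difference was 0.26 (adjusted p = 0.145). Of 12 genes tested 5 rose and 4 fell, with a median of 0.08 that turned to -0.10 under all-probe scaling.

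The CYP26A1 promoter is a textbook example of a retinoic acid response element, a direct repeat spaced by 5 bases, here searched as AGTTCA, any 5 bases and AGTTCA again, on both strands. RefSeq gives the gene 2 starts, and the window of 250 bases before the second, chr10:93073643-93073892 (plus strand, GRCh38.p14), is shown because it holds the match, in capitals.
CYP26A1 upstream: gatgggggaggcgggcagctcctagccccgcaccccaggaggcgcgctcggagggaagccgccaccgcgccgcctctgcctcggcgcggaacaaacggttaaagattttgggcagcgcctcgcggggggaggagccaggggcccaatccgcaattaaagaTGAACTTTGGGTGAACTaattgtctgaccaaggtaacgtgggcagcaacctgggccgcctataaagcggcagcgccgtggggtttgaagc
The repeat lay 90 to 74 bases before the start, on the opposite strand, and the window before the other start, chr10:93073225-93073474, held none. Of the 35116 windows, 3 (0.00854%) held a match. The letters searched are those of the CYP26A1 repeat itself, so a match in this gene was fixed beforehand. The share counts this exact form only, and does not measure how common retinoic acid response elements are.

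Genes of the pluripotent state fell without exception among those that passed. Of 19 tested, 11 fell, none rose and 8 did not pass, with a median of -0.35, against 24.4% of all genes called lower. POU5F1, the core pluripotency factor also known as OCT4, had 6.82, 6.95 and 7.23 at day 11 and 9.13, 8.93 and 9.21 at day 7, a 4.26-fold fall. ZSCAN10 and ZFP42, zinc finger factors of embryonic stem cells, fell 3.22-fold and 3.04-fold. DNMT3B, the de novo DNA methyltransferase, fell 2.22-fold, with 10.18, 9.80 and 9.95 at day 11 against 11.17, 11.10 and 11.10 at day 7. NANOG was detected on all 3 arrays at day 7 and on none at day 11, a fall of at least 1.41-fold. DPPA4 and LIN28A fell by less, at 1.28-fold and 1.27-fold. Under the scaling to probes detected on every array, 1 member of the list was called higher and 9 lower.

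Most cell cycle genes fell. Of 26 tested, 16 fell, 3 rose and 7 did not pass, with a median of -0.40. Under all-probe scaling 18 fell and 1 rose, and under scaling to detected probes 17 fell and 4 rose. The largest fall was that of MCM3, a subunit of the replicative helicase, which had 10.06, 10.04 and 10.11 at day 11 and 11.03, 11.24 and 10.98 at day 7, a 2.02-fold fall. CCNE1, the cyclin of entry into S phase, fell 1.94-fold, and MCM6, another helicase subunit, 1.75-fold. CDKN1A, the inhibitor p21, was among the 3 that rose, with 11.09, 11.22 and 11.41 at day 11 against 10.58, 10.38 and 10.37 at day 7 (1.73-fold). Of 14 p53 target and apoptosis genes, 7 rose and 3 fell, with a median of 0.24 that turned to -0.14 under all-probe scaling. They included GDF15, a stress-induced secreted factor, which rose 2.88-fold, ZMAT3, which rose 1.62-fold, and PMAIP1, the death-promoting protein NOXA, which fell 2.09-fold.

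**Figure D2:**
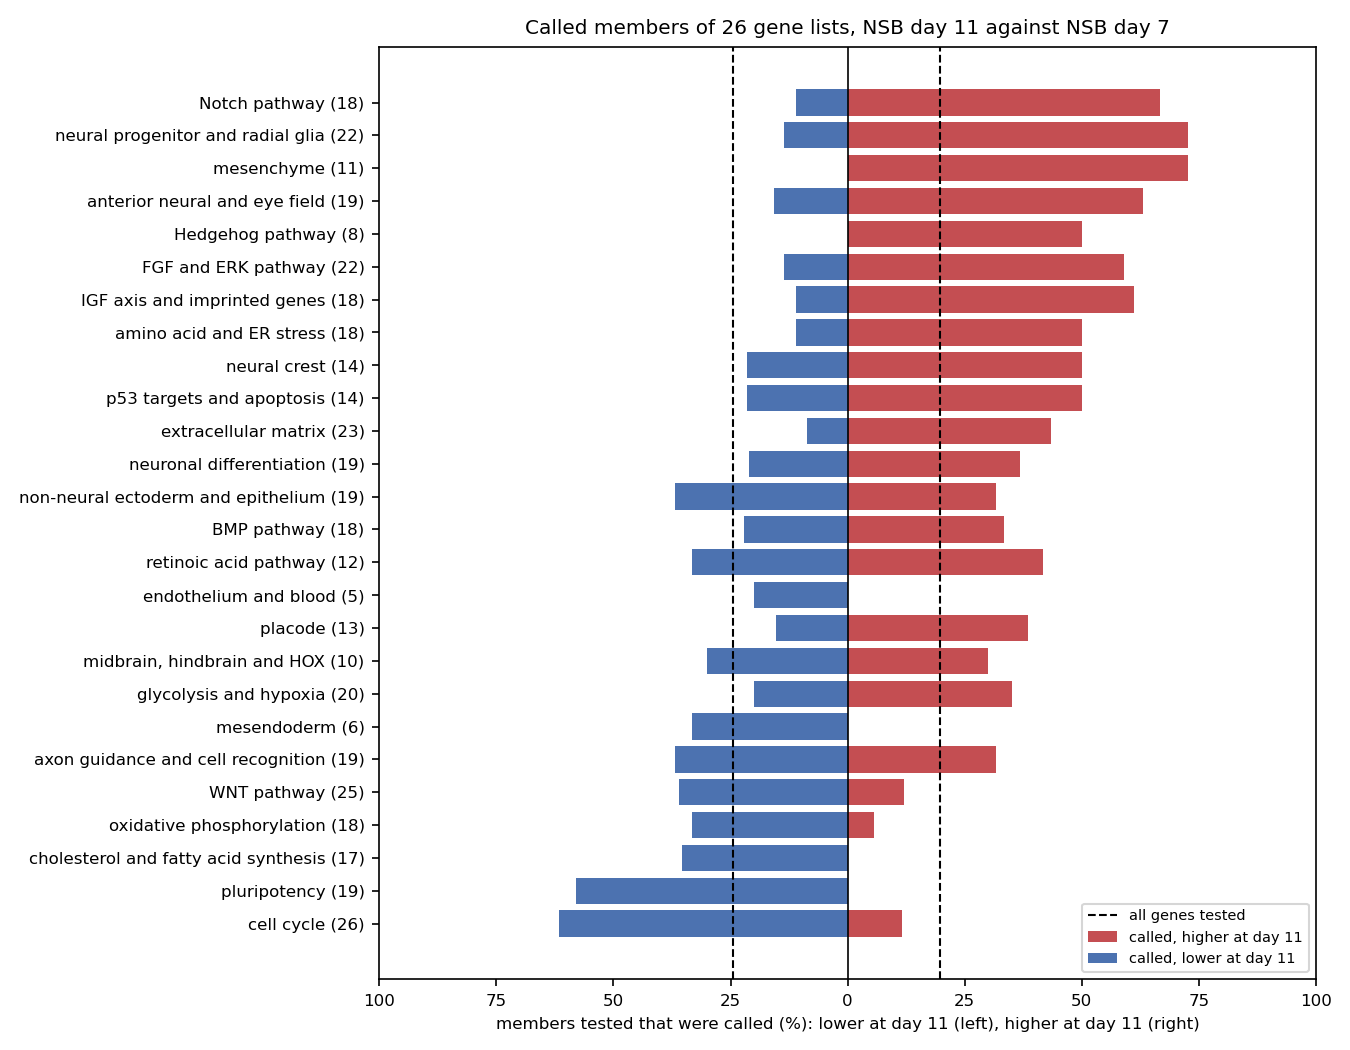
Percent of tested members called higher (red, right) and lower (blue, left) at NSB day 11 for 26 gene lists, with the number tested in brackets and lists ordered by median difference. Dashed lines mark the share of all 13488 genes (19.7% higher, 24.4% lower), and the Notch list stands at the top with 12 of 18 higher and the cell cycle list at the bottom with 16 of 26 lower.

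Several matrix genes of embryonic cartilage type and most mesenchyme genes rose. COL2A1, the type II collagen that early neural and notochordal epithelia also make, had 12.92, 12.84 and 12.91 at day 11 and 10.63, 10.19 and 10.39 at day 7, a 5.61-fold rise. COL11A1, its fibril partner, had 11.55, 11.53 and 11.46 at day 11 against 9.30, 9.43 and 9.31 at day 7 (4.49-fold). SULF1, an enzyme that trims heparan sulfate and so alters growth factor binding, had 10.09, 9.95 and 9.75 at day 11 and 7.26, 7.30 and 7.20 at day 7 (6.40-fold). GPC4, a cell surface heparan sulfate carrier, fell 2.18-fold. Of 23 matrix genes 10 rose, 2 fell and 11 did not pass, with a median of 0.17 that turned to -0.14, with 3 up and 7 down, under all-probe scaling. Without day 7 replicate 2 there were 4 falls. Of 11 mesenchyme genes tested 8 rose and none fell (median 0.56). Under all-probe scaling 5 rose, under scaling to detected probes 10 rose, and no member fell in either. PDGFRB, a growth factor receptor of pericytes and other mesenchyme, had 9.24, 9.33 and 9.05 at day 11 and 7.99, 7.41 and 7.93 at day 7 (2.69-fold). SNAI2, a repressor of epithelial genes, rose 2.75-fold, and the collagen chains COL5A2, COL1A1 and COL3A1 rose 2.17-fold, 1.64-fold and 1.47-fold. The mesenchymal matrix gene LUM was below the filter, and the summed intensity of the 3 tested markers COL1A1, COL3A1 and PDGFRB was 1105 to 1210 at day 11 and 483.8 to 663.2 at day 7. The part of mesenchymal cells in the rise of matrix genes was not tested.

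In the insulin-like growth factor axis, IGFBP3, a secreted binding protein, had 11.16, 11.23 and 11.23 at day 11 against 8.92, 9.05 and 9.03 at day 7, a 4.61-fold rise. IGFBP5, of the same family, rose 3.66-fold, with 12.94, 12.73 and 12.72 at day 11 and 11.09, 10.74 and 10.95 at day 7. The imprinted growth factor IGF2 rose 2.71-fold. The imprinted zinc finger gene PLAGL1 was detected on no day 7 array and rose at least 1.70-fold, and the maternally expressed noncoding RNA MEG3 rose 1.98-fold. Of 18 genes tested 11 rose and 2 fell, with a median of 0.35, and rises outnumbered falls under both other scalings.

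Metabolic genes moved in both directions. SLC2A1, the glucose transporter GLUT1, had 9.83, 9.82 and 9.68 at day 11, against 7.39, 7.14 and 7.48 at day 7, a 5.44-fold rise. NDRG1, a stress and hypoxia responsive gene, rose 3.10-fold and BNIP3, a mitophagy receptor induced by hypoxia, 1.55-fold, whereas EGLN3, an oxygen-sensing hydroxylase, fell 1.84-fold. The 20 glycolysis and hypoxia genes had 7 rises and 4 falls around a median of 0.02, which turned to -0.23, with 2 rises and 9 falls, under all-probe scaling. Without day 7 replicate 2 there were 4 rises. In cholesterol and fatty acid synthesis 6 of 17 fell and none rose (median -0.17). The share called was 35.29%, all lower, against 44.1% of all genes called and 24.4% called lower. The falls were led by SQLE and INSIG1 at 1.64-fold and 1.63-fold, with MVK at 1.49-fold and IDI1 at 1.46-fold. Under all-probe scaling 11 of the 17 fell (median -0.52), and none rose under either other scaling. In oxidative phosphorylation 6 of 18 fell and 1 rose (median -0.15), and the 38.89% called is below the 44.1% of all genes. The largest falls, of UQCRC1, NDUFA9, NDUFB8 and COX7B, were 1.32-fold, 1.31-fold, 1.23-fold and 1.20-fold. The call of COX7B was lost under 5 of 19 alternatives. Under all-probe scaling 15 of the 18 fell and none rose (median -0.46). The stress factors ATF3 and DDIT3 rose 3.13-fold and 2.24-fold, with 9.95, 10.02 and 9.83 for ATF3 at day 11 and 8.31, 8.24 and 8.31 at day 7. HERPUD1, a protein of the degradation machinery of the endoplasmic reticulum, rose 1.77-fold, and CHAC1, an enzyme that breaks down glutathione, 1.66-fold. Of 18 genes of amino acid and endoplasmic reticulum stress, 9 rose and 2 fell, with a median of 0.28 that turned to -0.04 under all-probe scaling.

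Markers of other cell types were checked in the same arrays. The 5 tested markers of placode and non-neural ectoderm summed to 4281 to 4959 at NSB day 11 and 3353 to 3813 at NSB day 7, against 9745 to 11230 in PIP at day 11. That sum is largely KRT18, a keratin of simple epithelia, whose 1.32-fold rise reversed to -0.03 under all-probe scaling and to -0.16 with the mean of its probes, another of which was called in the opposite direction. GATA3 and CDH1 were detected on none of the 6 arrays. TFAP2A, a factor of surface ectoderm and neural crest, had 6.15, 5.80 and 5.82 at day 11 against 5.15, 4.86 and 5.24 at day 7 (1.79-fold), far from its PIP means of 11.28 at day 11 and 10.52 at day 7. EYA1, a placodal coactivator, was called at 1.22-fold lower and lost that call under 5 of 19 alternatives. Several genes of epithelial identity fell: CLDN6 and CLDN7, tight junction proteins, by 3.01-fold and 2.24-fold, OVOL2, a repressor that keeps epithelia epithelial, by 2.36-fold and ESRP1, an epithelial splicing factor, by 2.29-fold. Of 19 genes of non-neural ectoderm and epithelium 6 rose and 7 fell, with a median of 0.17 that turned to -0.08 under all-probe scaling.

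Of 13 placode genes tested 5 rose and 2 fell, with a median of 0.04. Under all-probe scaling 3 rose and 2 fell, under scaling to detected probes 8 rose and 1 fell (median 0.38), and without day 7 replicate 2 there were 3 rises. The members called included DLX5, a border homeobox gene (1.66-fold up), PROX1, a homeobox factor of lens and of some neural progenitors (1.71-fold up), the coactivator EYA4 (at least 1.40-fold up) and the lens chaperone CRYAB (1.96-fold down). Of 14 neural crest genes 7 rose and 3 fell, with a median of 0.25, and under all-probe scaling 3 rose and 4 fell. Scaled to detected probes 10 rose and 2 fell, and without day 7 replicate 3 there were 4 rises. The receptors EDNRB and ERBB3 fell 2.54-fold and 2.33-fold, and SOX10, the defining crest factor, overlapped between 7.10, 6.85 and 7.44 at day 11 and 7.34, 7.45 and 7.14 at day 7. FOXD3 was detected on 1 of the 6 arrays. ETS1 was called at 1.19-fold higher and lost that call under 9 of the 19 alternatives. The 4 crest markers SOX10, FOXD3, SNAI2 and ETS1 summed to 355.6 to 398.2 at day 11 and 285.2 to 310.6 at day 7.

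The markers fixed for mesendoderm and for endothelium and blood stayed near background. Other genes of endothelium stood well above it, TEK and VWF at both days and PLVAP at day 11. TBXT, the mesoderm factor also called Brachyury, had 5.03, 5.23 and 5.27 at day 11 and 5.79, 5.57 and 5.26 at day 7, was detected on no day 11 array, and was called lower although its groups overlapped. MESP1, a factor of early cardiac mesoderm, was called at 1.21-fold lower. Both calls were lost under several alternatives, and MESP1 reversed to 0.03 when arrays were scaled to detected probes. MIXL1, SOX17, GATA4, PECAM1 and PTPRC were below the filter, and CDH5, the endothelial cadherin, was detected on none of the 6 arrays. The receptor TEK, listed for endothelium, fell 2.73-fold, with 7.56, 7.87 and 8.21 at day 11 against 9.20, 9.39 and 9.38 at day 7. Of 10 midbrain, hindbrain and HOX genes tested 3 rose and 3 fell, with a median of 0.04 that turned to -0.09 under all-probe scaling. IRX5 and IRX2, homeobox factors with expression caudal to the forebrain, fell 2.45-fold and 1.74-fold. GBX2, a homeobox factor of the anterior hindbrain, rose 1.73-fold, and PAX8 rose at least 1.88-fold from a level not detected at day 7.

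Among guidance molecules, NRP2, a receptor for semaphorins, was detected on no day 11 array and fell at least 1.77-fold, with 4.86, 4.68 and 4.56 at day 11 and 6.32, 5.92 and 6.01 at day 7. Its relative NRP1 fell 1.96-fold. The semaphorin SEMA5A rose 2.87-fold and EFNB1, an ephrin that sets tissue boundaries, 2.26-fold. Of 19 genes in the list 6 rose and 7 fell around a median of -0.03, which turned to 0.17 under scaling to detected probes.

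Several of the largest changes lay outside the pathway lists. EMP1, an epithelial membrane protein, had 8.45, 8.57 and 8.56 at day 11 and 5.42, 5.69 and 5.67 at day 7, a 7.65-fold rise with the smallest adjusted p of the named genes (9.51e-19). PLVAP, a diaphragm protein of fenestrated endothelium, had 8.33, 8.42 and 8.08 at day 11 against 5.61, 5.23 and 5.45 at day 7 (7.20-fold). DMRTA1, a transcription factor of the DMRT family, rose 6.77-fold, with 8.64, 8.67 and 8.45 at day 11 and 5.54, 6.11 and 5.83 at day 7. SYT17, a synaptotagmin, and DIPK1C rose 6.60-fold and 6.97-fold. KANK4 and MPPED1 were detected on no day 7 array and rose at least 5.67-fold and at least 4.87-fold.

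On the other side, CUZD1 was detected on no day 11 array and had 4.85, 4.73 and 4.76 at day 11 against 7.85, 8.39 and 8.12 at day 7, a fall of at least 7.26-fold. SEZ6, a neuronal membrane protein linked to dendrite form, had 5.95, 6.34 and 6.27 at day 11 and 9.75, 9.11 and 9.51 at day 7 (9.68-fold down). DAZL, an RNA-binding protein of germ cells, had 5.23, 5.56 and 5.07 at day 11 against 7.98, 8.40 and 8.25 at day 7 (7.60-fold down). VWF, the clotting factor carrier made by endothelium, had 7.57, 7.74 and 7.48 at day 11 and 10.79, 10.12 and 10.42 at day 7 (7.18-fold down). The secreted protein OLFML3 fell 6.39-fold, the rhomboid family member RHBDL3 6.20-fold and the neuropeptide GAL 5.35-fold. LNCPRESS1, a noncoding RNA that p53 represses in embryonic stem cells, fell 5.19-fold.

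The day 9 arrays, which the comparison leaves out, give values at a day in between. The NSB day 9 mean lay between the day 7 and day 11 means for 395 (68.9%) of the 573 genes with at least 2-fold differences and for 2674 (44.9%) of all 5950 called genes, against 4032 (29.9%) of all 13488 tested. A wider gap between the days leaves more room for an intermediate mean, so these shares are a description only. HES5 had nearly reached its day 11 level by day 9, with NSB means of 5.50, 8.08, 12.34 and 12.67 at days 5, 7, 9 and 11. HESX1 changed late, with 12.02, 11.96, 11.27 and 9.49 over the same days. ALDH1A2 fell only after day 9 (6.61, 8.05, 8.20 and 5.49), whereas CYP26A1 was lower at each later day (13.67, 12.06, 10.93 and 9.63). PLVAP was likewise at 5.47 on day 9 and 8.28 on day 11. SLC2A1 peaked at day 9 (7.50, 7.34, 10.91 and 9.78), as did IGFBP3 (8.50, 9.00, 12.53 and 11.20). NEUROG2 was lower at day 9 than at either neighbour (4.67, 8.92, 7.05 and 10.29), and ID1 too, with 10.35 at day 7, 9.19 at day 9 and 11.08 at day 11. Genes with a day 9 mean outside both neighbours numbered 1618 below and 1658 above among those called, so the difference between days 7 and 11 is not a measure of a steady course.

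**Figure D3:**
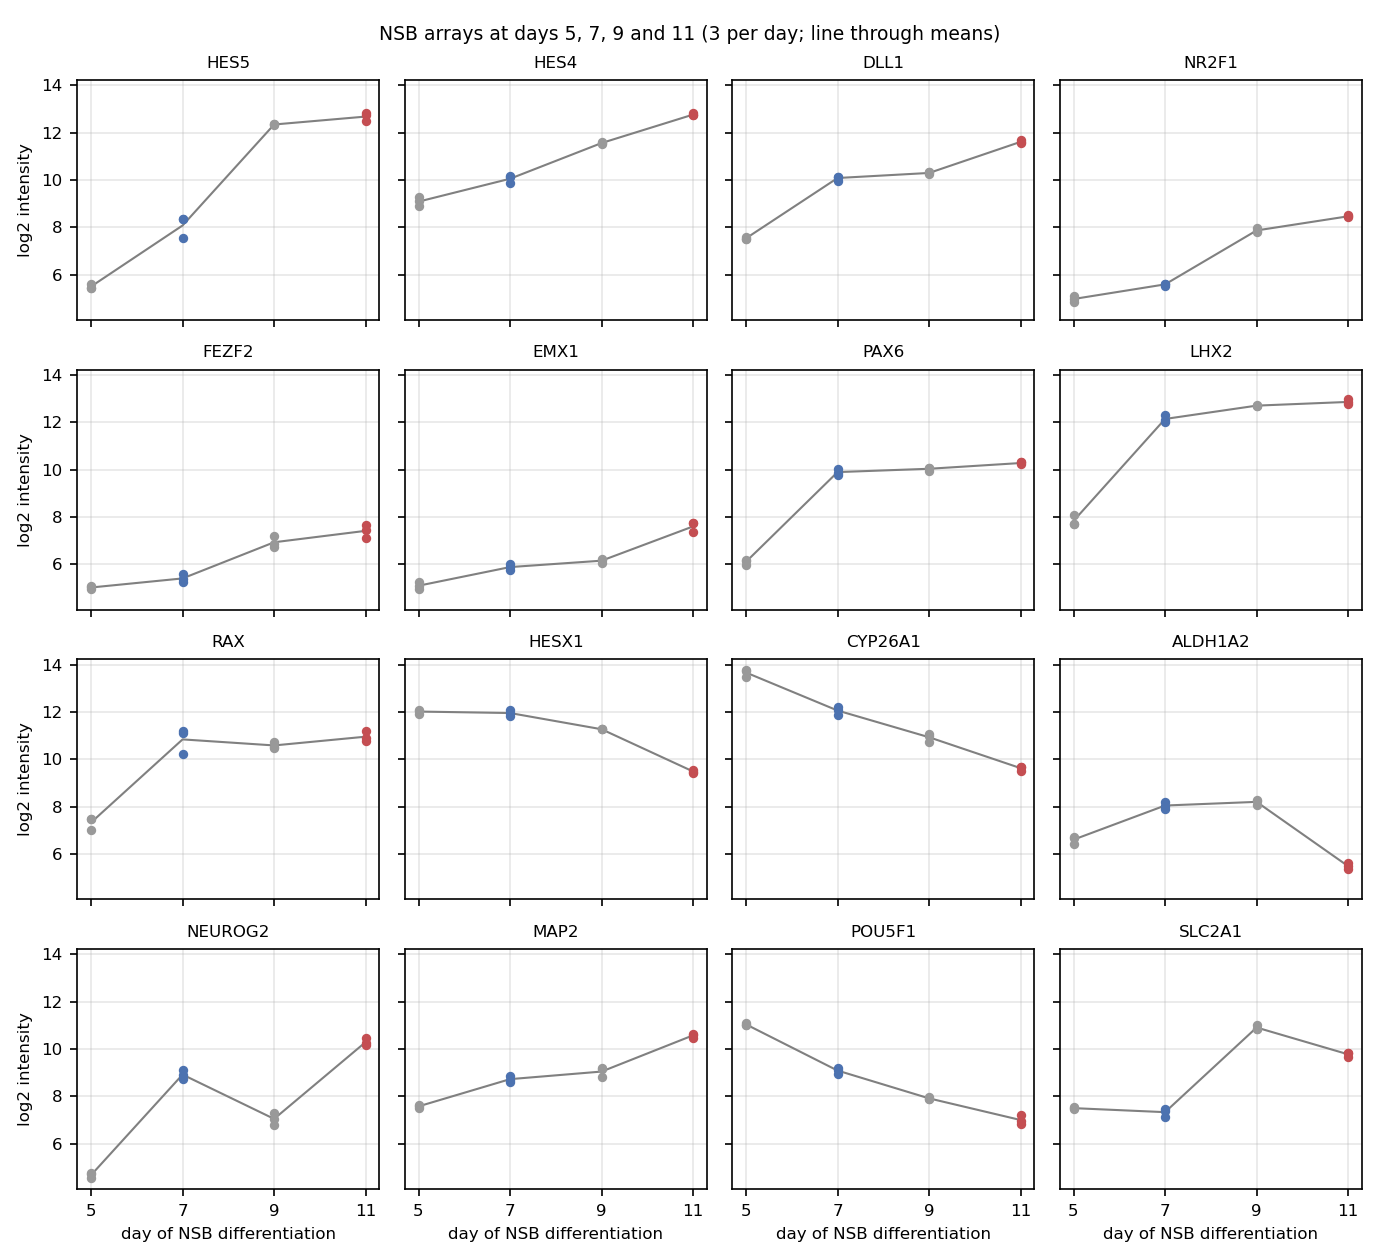
Log2 normalized intensity of the NSB arrays for 16 genes at days 5, 7, 9 and 11, with 1 point per array and a line through the means of 3 arrays; day 7 is blue and day 11 red. HES5 reaches 12.34 by day 9, RAX, PAX6 and LHX2 are near their final level at day 7, HESX1 drops between days 9 and 11, and NEUROG2 dips at day 9.

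Whether a change in NSB differed from the change in PIP over the same 4 days was tested with the difference of the 2 changes. The test uses the NSB arrays of the main comparison and separate PIP arrays. This difference was called for 1857 genes (13.8%), with the NSB change above the PIP change for 741 (5.49%) and below it for 1116 (8.27%). PIP day 11 against PIP day 7 alone had 5217 called genes (38.7%). Of the 276 genes that rose at least 2-fold in NSB, 252 also rose in PIP, 2 fell there and 22 were not called, and the difference of changes was called for 85 above and 19 below. Of the 297 that fell at least 2-fold, 257 also fell in PIP, 10 rose and 30 were not called, with the difference called for 11 above and 151 below. Both sets were chosen for a large NSB change, and the difference reuses the same NSB arrays. The lean of its calls toward larger NSB changes is therefore partly fixed by the choice. All 12 largest rises and all 12 largest falls were called in the same direction in PIP.

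In the FGF list the arms often differed. The NSB change was above the PIP change for 12 of 22 FGF genes and below it for 1, and the list median was 0.51 in NSB and 0.01 in PIP. FGF8 rose by 1.62 in NSB and fell by 0.57 in PIP, a difference of 2.18 (adjusted p = 2.78e-08). The differences were 1.86 for ETV4, which fell in PIP, 1.71 for IL17RD and 1.41 for ETV5, both of which rose in both arms. FGF9 rose alike, by 1.89 in NSB and 1.88 in PIP, with a difference of 0.01 ± 0.16 (SE). HES5 rose by 4.60 in NSB and by 5.83 in PIP, whose day 7 mean of 5.99 was lower than the 8.08 of NSB. HES4 and DLL1 rose more in NSB, by 0.97 and 0.70. HESX1 fell by less in NSB than in PIP, with a difference of 1.17, and SIX3, which was not called in NSB, fell by 1.65 in PIP (difference 1.36).

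Among genes called both in NSB and in the difference, the most positive difference was that of KCNK12, a potassium channel subunit, at 2.54. KCNK12 had 10.82, 10.76 and 10.80 at NSB day 11 against 9.48, 8.98 and 9.40 at NSB day 7, and fell by 1.03 in PIP. The most negative among the same genes was that of NRP2, at -4.04, since NRP2 rose by 2.66 in PIP. NRP2 was undetected on every NSB day 11 array, so the size of its difference is uncertain. ALDH1A1, CLDN1, a tight junction protein, and MAP1LC3C, an autophagy protein, rose by 4.34, 3.58 and 3.85 in PIP and by 0.58, 0.54 and 1.27 in NSB. The NSB call of ALDH1A1 rests on 1 array, as given above. CLDN1 had 4.93, 5.03 and 5.00 at NSB day 7, below the lowest values of detected probes (5.17 to 5.28), so the size of its NSB rise is uncertain. SLC27A2, a fatty acid transporter, fell by 0.93 in NSB and rose by 1.61 in PIP. DKK1 and CUZD1 fell in both arms, with differences of -2.07 and -2.42 from the larger falls in NSB. CUZD1 was undetected at NSB day 11, so the size of its difference is uncertain too.

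**Figure D4:**
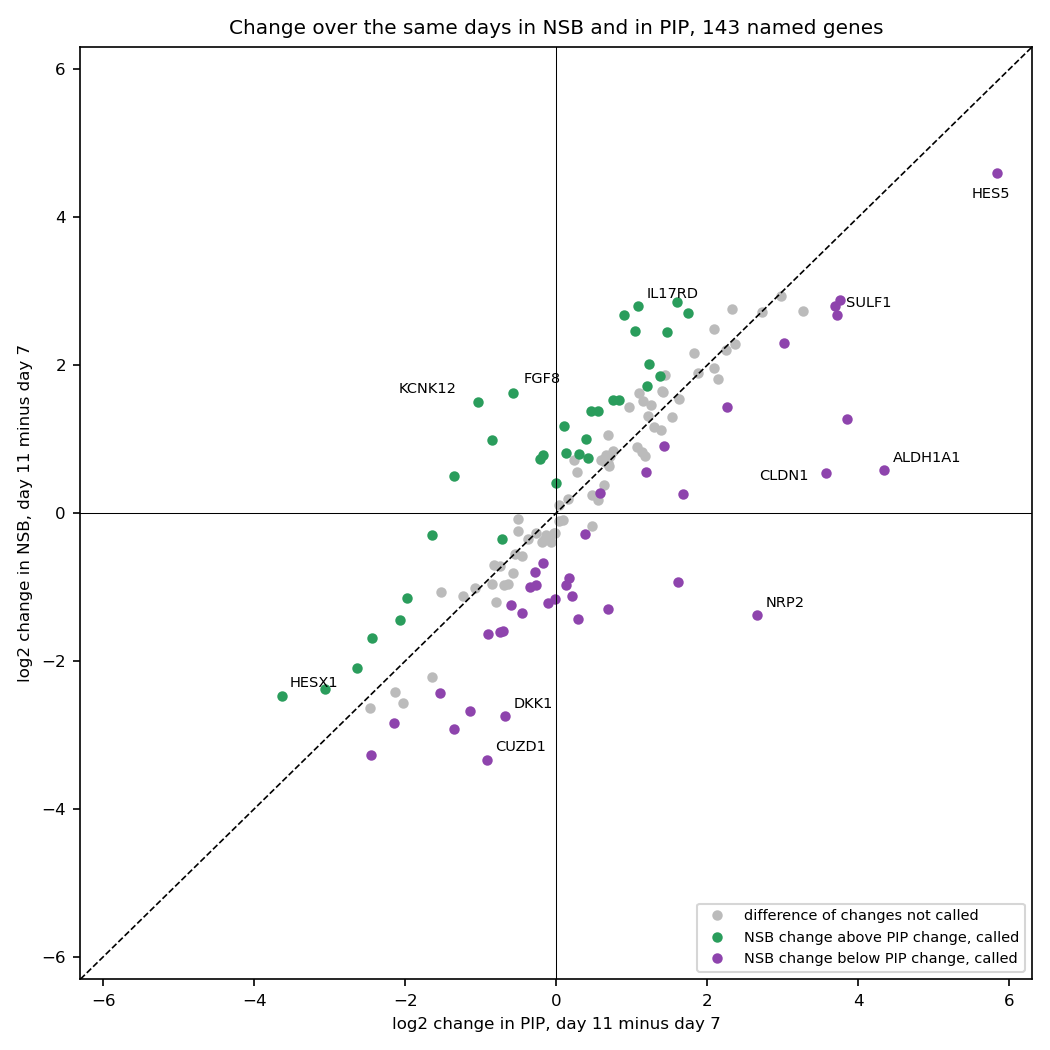
Log2 change from day 7 to day 11 in PIP (horizontal) and in NSB (vertical) for 143 named genes, with the dashed line at equal change. Green and purple points have a called difference of changes (NSB above or below PIP) and grey points do not; FGF8 and KCNK12 lie above the line, NRP2, ALDH1A1 and CLDN1 below it, and HES5 at the upper right rose in both arms.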

How the data were processed

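RNA of H9 cells was measured on 30 Illumina expression bead arrays, of which the 3 of NSB day 11 and the 3 of NSB day 7 are compared. For each probe and array the deposited table holds, per the file headers, an average intensity, a detection p-value, the bead count and the standard error of that signal. The authors used GenomeStudio, per the submitters' processing notes, which give no version, and the name of this table marks its intensities as neither normalized nor background-subtracted. A second deposited table, processed by the authors in a way not given in the sources used here, holds linear intensities with values below 0 and served as an alternative only. Depth is not defined for arrays, so their number limits the precision. The design text calls the array HT-12, but the probes bear the names of an earlier probe set.

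Intensities were background corrected (normexp with detection p-values, offset 16), quantile normalized over all 30 arrays and put on the log2 scale (limma 3.58.1, R 4.3.3). Of 48701 probes, 23687 had 1 gene name, 35 several and 24979 none. Of those with 1 name, 23651 matched human RefSeq, and 0 symbols were updated. Probes with a detection p under 0.05 on at least 3 arrays were kept (21500, of which 15495 had 1 gene name), and the brightest probe over the 30 arrays stood for each of 13488 genes. Another probe was called in the opposite direction for 54 of 1613 genes with several probes. A mean per group was fitted over 30 arrays (20 residual and 6.95 prior degrees of freedom), and moderated 2-sided tests were adjusted by Benjamini-Hochberg within each comparison. A gene undetected on all 3 arrays of its dimmer group gets a bound as its fold, against the lowest normalized value among detected probes of each array (5.17 to 5.28) and written as "at least". Arrays of equal replicate number were not taken as pairs, since the labels give no shared source. The correlation of residuals was 0.202, 0.109 and -0.0664 for numbers 1 to 3 between the groups. 0 pairs of arrays were identical. On simulated data for this comparison with 13488 genes, 99% of 100 changes of 1 on the log2 scale and 71% of 100 changes of 0.5 were recovered, with 5 false calls. Noise there was independent, normal and equal in spread over all groups, and only these genes changed. In the data 44.1% of genes were called and NSB day 7 varied most. The simulation therefore checks the fit and does not give the error rates of this comparison.

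Named genes are the 12 largest rises and falls among called genes with no overlap between groups and detection on all 3 arrays of the higher group, up to 4 called members with the largest difference in each of 26 lists, cell type markers, and the 5 extremes of the NSB minus PIP difference in each direction among genes called in both tests. Of the 515 genes on these lists 424 were tested, while 62 did not pass the filter and 29 are not analysed here. The comparison, members and lists were chosen with earlier results of these data known. Alternatives changed the normalization, background correction, filter, probe rule, samples in the fit, array weights and replicates. Figures were drawn with matplotlib 3.10.9.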

Additional observations from a re-analysis of the deposited data

Results flagged for a closer look

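The change from day 7 to day 11 differed between the NSB arm and the PIP arm, by the test of the difference itself (limma, adjusted p under 0.05), for the following genes named in the text. Values are the NSB change minus the PIP change on the log2 scale, with 3 arrays in each of 4 groups. Levels below detection entered as they stood and no bound was taken. The sizes are therefore uncertain for genes such as NRP2 and CUZD1, undetected at NSB day 11, and MPPED1, undetected at NSB day 7. No explanation was tested. Groups of 3 arrays are too small for the test of single outlying samples. The differences of single genes were not checked under other processing. Scaled to the median of all probes, the median difference over all genes was -0.186, and 123 genes were called above 0 against 741. Small positive values, such as those of KRT18, DPPA4 and ID1, are therefore the least secure.

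Among signalling genes the difference was positive for FGF8 at 2.18, ETV4 at 1.86, IL17RD at 1.71, ETV5 at 1.41 and FGFR3 at 0.471, all of the FGF pathway. It was also positive for HES4 at 0.969 and DLL1 at 0.7 in the Notch pathway, for the ephrin EFNB1 at 1.08 and for the BMP target ID1 at 0.32. It was negative for HES5 at -1.23 and DNER at -0.623, also of the Notch pathway, for the BMP antagonist GREM1 at -1.32, and for the Hedgehog coreceptor GAS1 at -0.514. In the WNT list it was negative for DKK1 at -2.07 and RSPO3 at -1.72. In retinoic acid metabolism it was negative for ALDH1A1 at -3.77, CYP26A1 at -0.9, DHRS3 at -0.658 and RDH10 at -0.502. The semaphorin receptors NRP2 and NRP1 had -4.04 and -1.1.

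Among regional and neural genes it was positive for SIX3 at 1.36, HESX1 at 1.17, GBX2 at 0.97, DLX5 at 0.942, FEZF2 at 0.785, PAX8 at 0.608 and EMX1 at 0.513. The neuronal genes NEUROG2, NHLH1, ELAVL3 and MAP2 had 0.918, 0.821, 0.676 and 0.478. It was negative for IRX5 at -1.98, NR2F1 at -0.886, GAP43 at -0.738, ZBTB16 at -0.717, EYA1 at -0.662, IRX2 at -0.524 and CDH2 at -0.311.

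Pluripotency genes that fell less in NSB were DNMT3B with a difference of 0.821, ZSCAN10 with 0.748, LNCPRESS1 with 0.692, POU5F1 with 0.547 and DPPA4 with 0.365, whereas ZFP42 fell more in NSB (-0.859). In the list of non-neural ectoderm and epithelium 3 of 19 members had a called difference above 0 and 7 below, and in the neural crest list 3 of 14 above and 6 below. Over all genes tested the difference was called above 0 for 5.49% and below for 8.27%. Those named in the text were CLDN1 at -3.04, ETS1 at -1.42, CLDN7 at -1.15, ERBB3 at -1.11, EDNRB at -0.888, CLDN6 at -0.881 and OVOL2 at -0.637, and KRT18 at 0.409.

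Of the remaining genes, positive differences were those of KCNK12 at 2.54, MEG3 at 1.83, MPPED1 at 1.79, PLVAP at 1.25, SLC2A1 at 0.981, GDF15 at 0.778, TEK at 0.619 and CDKN1A at 0.493. Negative differences were those of MAP1LC3C at -2.59, SLC27A2 at -2.54, CUZD1 at -2.42, DAZL at -1.58, OLFML3 at -1.54, EGLN3 at -1.05, SULF1 at -1.04, DIPK1C at -0.889, SEZ6 at -0.826, IGF2 at -0.822, CRYAB at -0.706, VWF at -0.696 and COL3A1 at -0.628.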

How the results depend on the processing

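Limits come from 3 arrays a group and from the scaling. Of 148 named genes, 137 were called and 116 of them kept direction and call under each of the 19 alternatives that gave a value. Scaled to the median of all probes, 802 genes were higher and 5484 lower (12.8% of calls higher, against 44.7%), and the difference from PIP was called for 1081, 123 of them above. Scaled to probes detected on every array, 59.3% of 6642 calls were higher. Normalized over the 6 arrays alone there were 3923 calls (1747 higher, 2176 lower), and with the fit on the 6 arrays alone 3827 (1699 higher, 2128 lower), where fewer samples give less certain spreads; neither gives a PIP difference. In that last fit 2 retinoic acid genes rose in place of 5, 4 p53 targets in place of 7, and 2 oxidative phosphorylation genes fell in place of 6. With array weights, which keep all 30 arrays, there were 4244 calls (1863 higher, 2381 lower). The NSB day 7 arrays had weights of 0.367, 0.288 and 0.504 there, where weights reached 2.51. The main fit instead shares a common spread per gene over all groups, of which NSB day 7 varied most. Under the weights the difference from PIP was called for 1219 genes, 434 of them above. At least 2-fold differences numbered 315 with no background correction, 331 with an offset of 50 and 949 with the deposited processed values, and for the difference from PIP 117, 121 and 435, against 573 and 228. Leaving out 1 array left 5268 to 6128 calls, and 1515 to 2532 for the difference from PIP. The block for replicate number gave 5869 calls, 5830 of them shared, and changed no call of a named gene. The cause of these shifts was not tested.

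Under scaling to all probes the sign reversed for RAX (-0.32), CDH2 (-0.0419), DCX (-0.0275) and KRT18 (-0.0275, and -0.16 with the mean of its probes). Under scaling to probes detected on every array it reversed for CDH1 (0.28), CDH5 (0.25), SOX2 (0.0937) and MESP1 (0.032). With 1 array left out, RAX ranged from -0.19 (without day 7 replicate 2) to 0.29 (without day 7 replicate 1), and OTX2 from -0.19 (without day 7 replicate 1) to 0.00010 (without day 7 replicate 2). Slide as a block was not run, since the labels and files give no slide. Probes detected on fewer than 3 arrays of a group limit SOX2, NANOG, GATA3, CDH1, CDH5, FOXD3 and TBXT, among others.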
